A study of Drosophila melanogaster with 2 samples.

Results

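Sites bound by CG10366-eGFP were examined at 10 genes of the Decapentaplegic (Dpp) signalling pathway: shn, sbb, dpp, Mad, Med, brk, tkv, put, sax and Dad. They are 10 of the 13986 protein-coding genes of Drosophila melanogaster in Ensembl release 115. The genes were selected on these peak lists, with the large numbers of peaks in shn and sbb already known, so their counts are descriptions and no test was made on them. Each gene was found by its symbol, and every peak summit within its annotated span or within 5 kb of either end was assigned to it. The data come from chromatin immunoprecipitation with sequencing (ChIP-seq) of whole embryos aged 0 to 24 h, of the strain CG10366-GFP, whose transgene makes the CG10366 protein fused to enhanced green fluorescent protein (eGFP). An antibody against GFP was used on sonicated chromatin of 200 to 800 bp. The study has 1 group of 2 biological replicates, so every comparison is between places in the genome or between the lists of the replicates. Each library mixes all cell types of the embryo and all its stages, and binding in few cells cannot be told apart from weak binding in many.

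Dpp is a secreted ligand of the bone morphogenetic protein (BMP) family. It binds receptor complexes of the type I receptors Tkv and Sax and the type II receptor Put, which phosphorylate the receptor-regulated Smad protein Mad. Mad enters the nucleus with the common Smad protein Med. Dad, an inhibitory Smad, limits the signal. Brk represses Dpp target genes, and its own gene is silenced by Mad and Med together with the zinc-finger protein Shn. Sbb (also called Brakeless or Master of thickveins) is a nuclear corepressor known to reduce tkv expression in the wing disc. In the embryo the pathway patterns the dorsal-ventral axis, including the amnioserosa, and later the gut and tracheae.

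The sequences at summits of 6 members are shown first, since low GC content is what most member summits have in common. They are given on the + strand of dm6, from 50 bp before to 50 bp after the summit, and were read from the RefSeq copy of that assembly; the Med window stops where the exon of the neighbouring gene begins. Capitals mark unbroken runs of at least 6 bases that are all A or T.
dpp, intron 1 (chr2L:2433608-2433708, + strand): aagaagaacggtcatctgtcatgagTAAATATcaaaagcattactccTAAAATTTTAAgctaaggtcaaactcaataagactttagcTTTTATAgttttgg
Mad, intron 1, strong summit (chr2L:3153361-3153461, + strand): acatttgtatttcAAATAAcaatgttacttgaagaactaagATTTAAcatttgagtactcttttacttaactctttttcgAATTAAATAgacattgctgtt
Mad, intron 1, weak summit (chr2L:3158765-3158865, + strand): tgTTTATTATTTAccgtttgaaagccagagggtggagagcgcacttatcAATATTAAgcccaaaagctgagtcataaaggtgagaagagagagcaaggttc
Med, beyond the 3′ end (chr3R:31616161-31616221, + strand): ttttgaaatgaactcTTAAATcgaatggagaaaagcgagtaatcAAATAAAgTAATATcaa
brk, upstream (chrX:7307054-7307154, + strand): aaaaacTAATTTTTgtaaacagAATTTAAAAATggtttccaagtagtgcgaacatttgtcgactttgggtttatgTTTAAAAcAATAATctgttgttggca
tkv, intron 2, promoter-distal (chr2L:5225653-5225753, + strand): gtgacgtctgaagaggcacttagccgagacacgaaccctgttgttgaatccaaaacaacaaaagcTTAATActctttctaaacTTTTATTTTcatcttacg
tkv, intron 2, near an inner start site (chr2L:5238399-5238499, + strand): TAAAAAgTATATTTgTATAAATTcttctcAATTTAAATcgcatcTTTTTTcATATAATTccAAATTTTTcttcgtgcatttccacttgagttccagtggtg
Dad, intron 5 (chr3R:17065082-17065182, + strand): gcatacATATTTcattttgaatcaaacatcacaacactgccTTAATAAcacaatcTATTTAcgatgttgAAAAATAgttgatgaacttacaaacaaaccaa
Runs of A or T took 52 of the 101 bases in the tkv window near an inner start site and 15 in the other tkv window. They took 25 bases in the dpp window, 32 in that of brk and 26 in that of Dad. The weak Mad summit had a GC content of 41.6%, and the strong one 24.8%.

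Peaks were kept by their irreproducible discovery rate (IDR), which is low where a peak ranks consistently high in both inputs it was compared between. The series-wide thresholded list, made from both libraries, held 5153 passing peaks with an IDR of 0.01 or less, and a further 28717 ranked candidates failed; 148 more of the 34018 ranked peaks met that IDR but are not in the thresholded list. Replicate 1 alone gave 4876 passing peaks, replicate 2 alone 3378, and a conservative list from both libraries 4989. The signal of a peak is the authors' own value, used to describe and rank peaks within a list. Where signals of different lists stand side by side, each is on its list's own scale, and no difference in binding is read from them. The median signal was 142 over the series-wide passing peaks. The lists hold no read totals, so the depth of either library is unknown.

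Of the 10 genes, 9 had a passing summit in the series-wide list, and put, the type II receptor gene, had none. By the same rule 49.4% of all protein-coding genes had one. The conservative list also reached 9 members (48.7% of all genes), replicate 1 reached all 10 (47.9%) and replicate 2 reached 8 (40.3%), with neither put nor tkv among them. Within gene spans alone the count was 6 members (shn, sbb, dpp, Mad, tkv and Dad), against 12.4% of all genes. The rule used these counts, so nothing is read from how they compare with the background.

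Together the 9 genes held 40 passing summits, and 26 of them (65%) were at shn (10) and sbb (16). The type I receptor gene tkv held 5, dpp, Mad and brk held 2 each, and Med, sax and Dad held 1 each. The median signal of the 40 was 132, and 19 of them exceeded the series-wide median. By signal, 7 of the 40 ranked in the top 500 of the 5153 passing peaks, at sbb (3), shn (2), Med and Mad. The members dpp, brk, tkv, put, sax and Dad had none there.

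**Figure D1:**
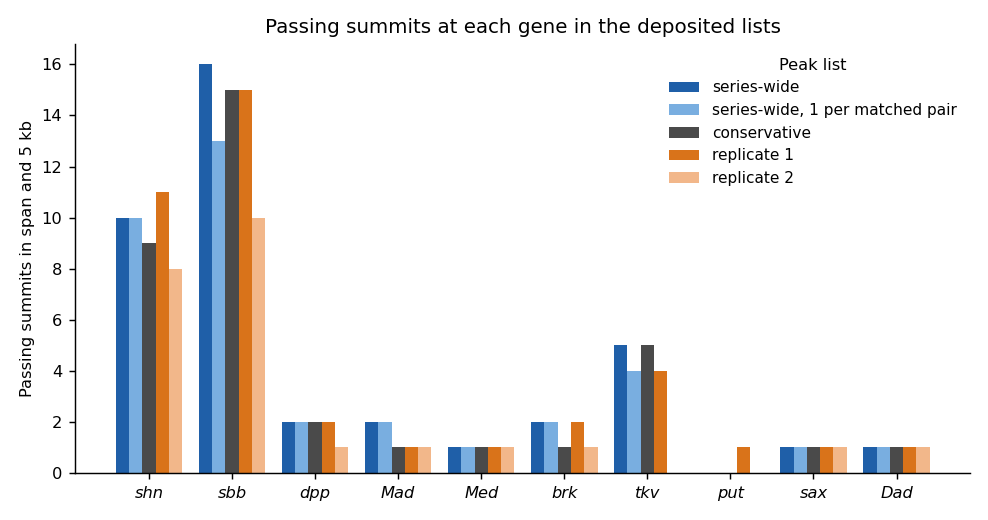
Passing summits in each gene's span and 5 kb to either side (y axis, number) for the 10 genes (x axis) in each deposited list, with the series-wide count also given as 1 summit per matched pair. The bars of sbb (16, 13 by pair) and shn (10) stand above those of tkv (5), and tkv has no bar for replicate 2.

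A few passing summits appear to rest on the same evidence. In the ranked lists each peak carries further positions, inferred to be those of the pair of peaks whose ranks gave its IDR. By that reading 4 member summits shared their pair with a stronger neighbour. These were sbb summits with signals of 18.3, 14.8 and 10.4 and a tkv summit with 22.8. Across the series-wide list 345 passing summits were of this kind, with a median signal of 13.1 against 150 for the others. Keeping the strongest summit of each pair left 36 summits at the members, 13 at sbb and 4 at tkv, and raised their median signal to 178.

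Both shn and sbb stood near the top of the genome by count. Per gene, the mean over all protein-coding genes was 0.905 passing summits and the median 0. Only 16 genes had 10 or more. The gene sbb ranked 3rd, after kirre (24) and CG1677 (21), and shn ranked 12th, level with CG12535, CG32264, NK7.1 and cpo. With 1 summit per pair sbb was 3rd, level with Hr4, CHES-1-like and Tlk (13 each), and shn 10th, level with CG32264. Of these 16 genes 7 lie on the X chromosome, and shn and sbb are the 2 on arm 2R. The gene tkv ranked 131st.

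Long genes hold more summits, so length was set beside the counts. The window of shn spans 68.3 kb, that of sbb 89.1 kb and that of tkv 62.4 kb. Among the 299 genes with a window at least as long as that of tkv, the median was 2 passing summits, 88 had none and 11 had 10 or more. Per 10 kb, shn had 1.46 summits and sbb 1.80 (1.46 by pair), against 0.384 over the chromosome arms. By this density sbb ranked only 1150th and shn 2093rd among all protein-coding genes, short ones included. Of the 299 long genes 5 were denser than shn, 1 was denser than sbb and 29 were denser than tkv, which had 0.801. With 1 summit per pair, 4 were denser than shn, 5 than sbb and 44 than tkv. The short windows of the other members gave 1.52 per 10 kb at brk, 0.848 at Mad, 0.736 at sax, 0.698 at Med, 0.482 at dpp and 0.379 at Dad. The value of Dad, from 1 summit, was close to the 0.384 of the arms, and the other members with a summit lay above it.

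**Figure D2:**
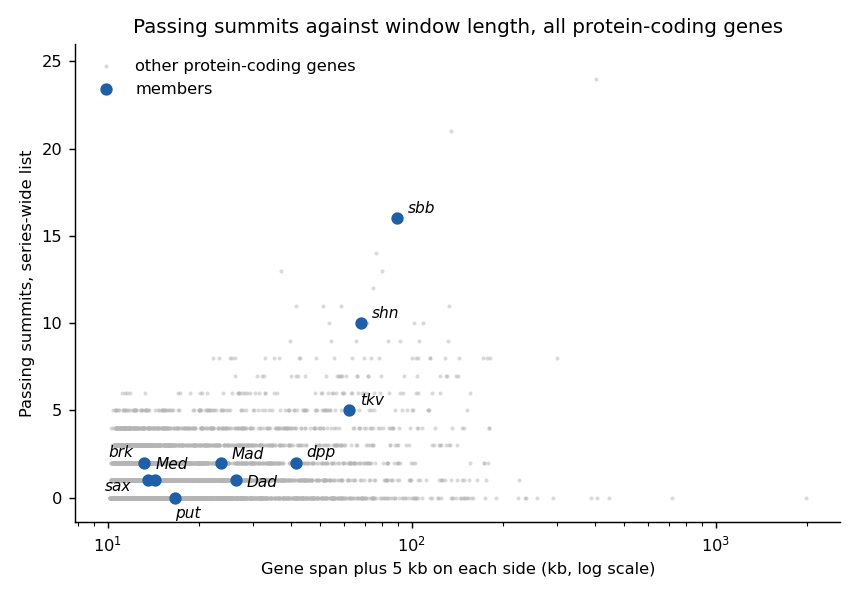
Passing summits in the series-wide list (y axis, number) against window length (x axis, gene span plus 5 kb on each side in kb, log scale) for every protein-coding gene, with the 10 members as large points. With 16 summits sbb and with 10 summits shn lie above most genes of their length, and the other members lie among the rest.

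Over the 4 lists, the genes most like shn were CG12535 (10 series-wide, 8 conservative, 10 in replicate 1 and 7 in replicate 2), CG32264 (10, 11, 10 and 7) and msn (11, 11, 9 and 9). The values of shn itself were 10, 9, 11 and 8. Likeness was the Euclidean distance over log2(1 + number of passing summits) in the 4 lists, and these genes were at 0.26, 0.337 and 0.421 from shn. The genes most like sbb, which had 16, 15, 15 and 10 summits, were Hr4 (14, 13, 17 and 9), CHES-1-like (13 in each list) and Tlk (13, 12, 12 and 9). Their distances were 0.343, 0.523 and 0.526. Density was not part of the measure. Per 10 kb, Hr4 had 1.84 summits and Tlk 1.63, near the 1.80 of sbb, and CHES-1-like had 3.51. CG12535 had 1.41, near the 1.46 of shn, CG32264 had 0.984 and msn 2.64.

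The gene shn (FBgn0003396, chr2R:11159086-11217394 of dm6, + strand) encodes the zinc-finger partner of Mad and Med. Its 10 passing summits were all intronic: 4 lay in intron 1 and 6 in intron 2 of shn-RE, the longest transcript. In order along the gene their signals were 81.6, 562, 130, 135, 77.4, 423, 165, 232, 83.3 and 208. The strongest pair, 562 and 423, stood 25.5 and 35.7 kb from the 5′ end. No summit lay in the first 17.5 kb or after 48.1 kb, beyond which most exons lie, and 8 fell within 20 kb of each other. The gene has 5 start sites, and the summits kept 1225 to 5674 bp from the nearest.

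Most shn summits repeated. The summit of 562 had a signal of 311 in the list of replicate 1 and 260 in that of replicate 2, and the summit of 423 had 264 and 166. Counting overlap with thresholded peaks, 6 of the 10 passed in both libraries, 1 in replicate 1 alone, 1 in replicate 2 alone and 2 in neither. The 2 in neither had series-wide signals of 81.6 and 77.4, and candidates of 36.5 and 38 and of 32.5 and 41.4 in replicates 1 and 2. The 4 that did not pass in both had series-wide signals of 77.4 to 135, and the 4 strongest summits all did.

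The gene sbb (FBgn0285917, chr2R:18278198-18357296, − strand) encodes the corepressor Scribbler. Its strongest summits were intronic, with signals of 637 and 642 at 18.8 and 22.0 kb from the 5′ end, both in intron 2 of sbb-RG. Between them, at 20.1 kb, was a summit of 331, and 382 followed at 23.9 kb. A summit of 489 lay 145 bp upstream of the outer start site. It was the only one of the 40 member summits to lie that near, by a limit of 500 bp, to a start of its own gene, and 19.4% of all protein-coding genes had such a summit. Farther along the gene there was a gap of 23744 bp before a summit of 298 at 54.4 kb, 1047 bp from the start site of CG14505.

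The remaining sbb summits were weaker. Signals of 110, 78.1, 128, 239 and 191 were found in intron 2 between 3.04 and 30.6 kb. A summit of 82.5 and its paired neighbour of 14.8 lay in the 5′ UTR of CG14502, a gene inside sbb, and a summit of 80.5 with its neighbour of 10.4 lay in intron 4. Of the 16 summits, 8 passed in both libraries, 6 in replicate 1 alone and 2 in replicate 2 alone. The strong summits of 637 and 642 had signals of 397 and 377 in replicate 1 and 242 and 258 in replicate 2. The summit of 331 did not follow this pattern. It had 240 in replicate 2, where it ranked 296th, but its one overlapping candidate in replicate 1 had 30.9, ranked 9350th and did not pass.

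**Figure D3:**
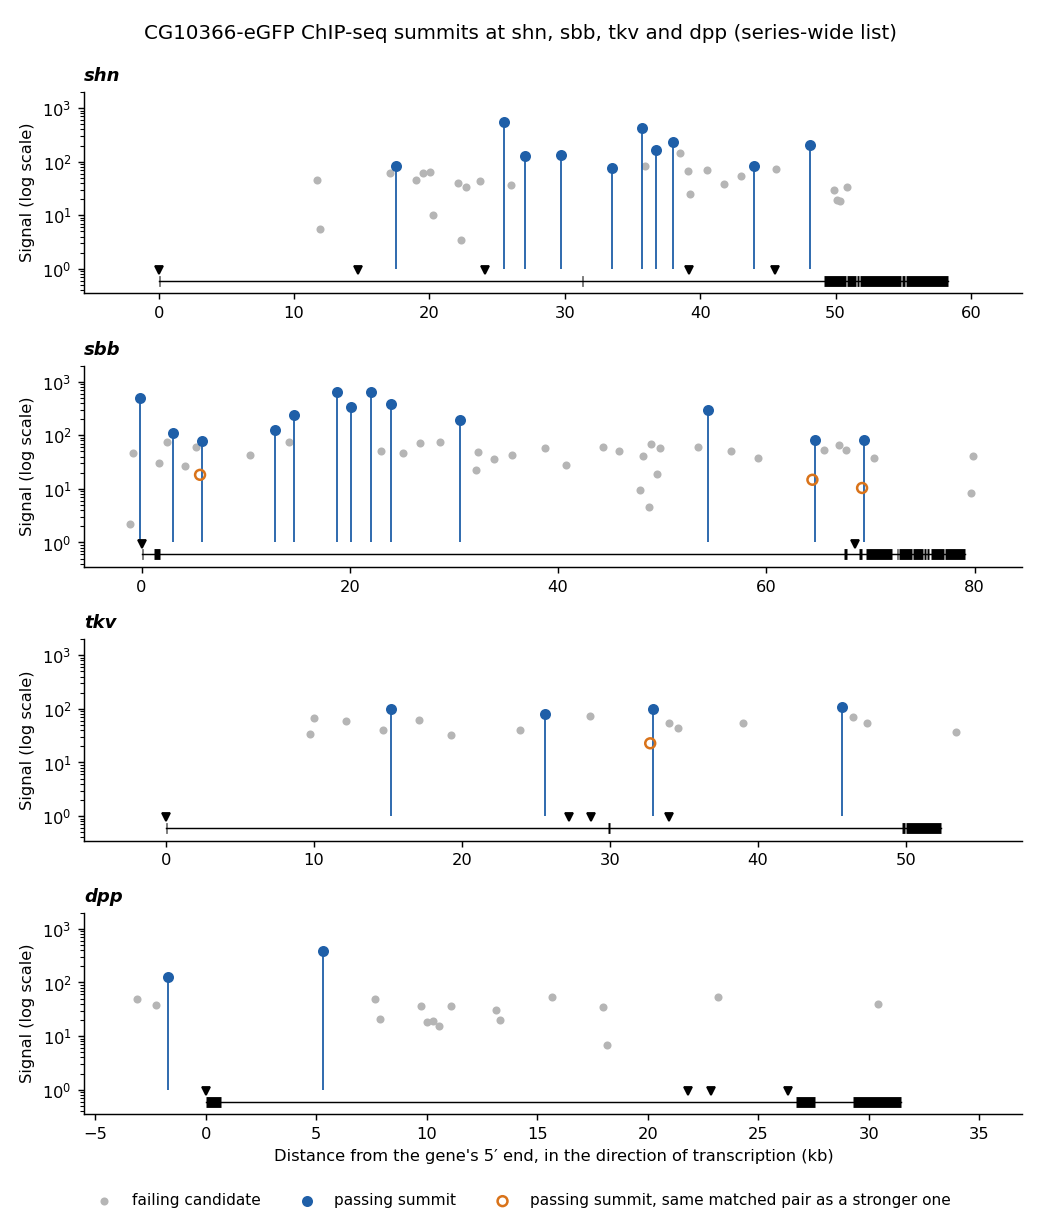
Signal (y axis, log scale) of series-wide summits along shn, sbb, tkv and dpp (x axis, kb from the 5′ end), with passing summits in blue, those sharing a matched pair with a stronger one as open circles, and failing candidates in grey. Below each panel black blocks are exons of the longest transcript and triangles are start sites; the passing summits of shn lie between 17.5 and 48.1 kb, before the block of exons at the 3′ end.

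The ligand gene dpp (FBgn0000490, chr2L:2428372-2459823, + strand) had a summit of 392 in its first intron, 5.29 kb from the 5′ end. Its signal was 232 in replicate 1 and 163 in replicate 2, and it passed in both. A second summit of 126 lay 1.73 kb upstream of the gene, nearest to the start site of lncRNA:CR44912, and passed in replicate 1 alone (83.4, against a candidate of 45.9 in replicate 2). No passing summit lay farther into dpp, whose 3 inner start sites begin 21.8 kb from the 5′ end, and 16 candidates within reach of the gene failed.

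Of the 2 type I receptor genes, tkv had more summits and sax the stronger one. At tkv (FBgn0003716, chr2L:5219000-5271384, − strand) the 4 distinct summits had signals of 98, 79.9, 99 and 107, all in introns 1 and 2 and all below the series-wide median. In replicate 1 their signals were 59.8, 30.6, 58.1 and 65.8, and in replicate 2 they were 44.4, 49.2, 44.4 and 46.2. Of these, 3 passed in replicate 1 and none in replicate 2, so tkv was a target by the series-wide list without a passing peak in replicate 2. At sax (FBgn0003317, chr2R:7806484-7810067, + strand) the 1 summit had a signal of 271 and lay 2317 bp past the 3′ end, 120 bp upstream of the start site of puml. It passed in both libraries, with 178 and 98.6.

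The type II receptor gene put (FBgn0003169, chr3R:14619030-14625703, − strand) had 5 candidates in the series-wide list, and all failed. The strongest had a signal of 77.2 and a −log10 IDR of 1.07, below the 2 needed to pass. At that place replicate 1 alone had a passing summit with a signal of 54, in an intron 1591 bp from the start site. It passed in no other list.

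Among the Smad genes, the highest signal was at Med (FBgn0288966, chr3R:31611046-31615375, + strand). Its summit of 1530 ranked 33rd of the series-wide peaks, with 870 in replicate 1 and 667 in replicate 2. The summit lay 796 bp past the 3′ end of Med and 11 bp upstream of the start site of Mnat9, so Med is not the nearest gene. Mad (FBgn0011648, chr2L:3146056-3159643, − strand) had a summit of 547 in intron 1, 658 bp upstream of its inner start site, with 313 and 222 in the replicates. Its other summit, of 72, lay 828 bp inside the outer start site and passed in neither library (31.6 and 41.3). Dad (FBgn0020493, chr3R:17054007-17070408, + strand) had 1 summit of 357 in intron 5, 11.1 kb from the 5′ end, which passed in both libraries with 221 and 144.

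The repressor gene brk (FBgn0024250, chrX:7307939-7311132, + strand) had 2 summits upstream of its start site. That at 835 bp had a signal of 191 and passed in both libraries (140 and 51.1). That at 1992 bp had 105 and passed in replicate 1 alone (83.7, against a candidate of 28.3). Both lie in introns of CG1677 and of lncRNA:CR44357, which overlap the upstream region of brk. CG1677 held 21 passing summits in its own window of 135 kb, so the brk summits also belong to a gene dense in summits.

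Member summits were mostly away from start sites. Introns held 34 of the 40 (85%), against 48.8% of all passing summits, and intergenic sequence held 4 (10%, against 38.7%). The other 2 were those in the 5′ UTR of CG14502, and coding exons held 0, against 0.873% of all passing summits. At most 500 bp from a start site, whatever its gene, were 4 (10%), against 44.8% of all passing summits. These were the sbb promoter summit, that of 82.5 near CG14502, and those beside Mnat9 and puml. Windows that cover long introns favour intronic summits by construction, and these shares carry no test.

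Replicate 2 gave fewer member summits, as it did over all passing peaks, of which 85.1% overlapped replicate 1 and 64.4% replicate 2. Of the 40, 20 passed in both libraries (50%, against 57.9% of all passing peaks), 13 in replicate 1 alone, 3 in replicate 2 alone and 4 in neither. The 13 include the 4 sbb and tkv summits that share a pair with a stronger neighbour. The conservative list, which rests on both libraries, overlapped 33, and 87.8% of all passing peaks. The 4 in neither had series-wide signals of 81.6 and 77.4 at shn, 79.9 at tkv and 72 at Mad, all below the median. Whether sequencing depth plays a part was not tested, as no read totals were at hand.

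**Figure D4:**
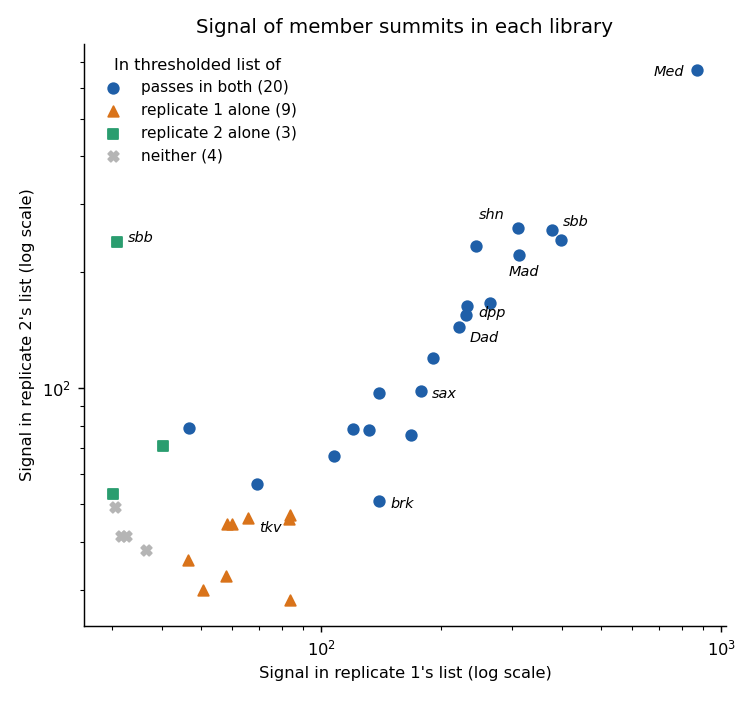
Signal in the list of replicate 2 (y axis) against that in the list of replicate 1 (x axis), both on log scales, for the 36 distinct member summits, by the thresholded lists that hold them. The Med summit is highest in both (870 and 667), the tkv summits pass in no case in replicate 2, and 1 sbb summit has 30.9 in replicate 1 and 240 in replicate 2.

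Near the IDR threshold, the members just inside it were shn 83.3 (IDR 0.00757), tkv 79.9 (0.00691) and Mad 72 (0.00523). Just outside it were tkv 72.1 (0.0106) and shn candidates of 24.8 (0.0123) and 66.4 (0.0124). The signals overlap across the threshold, and the cause of this was not tested. One shn candidate, 683 bp from a start site, had a signal of 144 and a −log10 IDR of 0.263 in the series-wide list but 3.6 in the conservative list.

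The median GC content was lower at member summits than at failing candidates at the same genes, and the ranges overlapped. Within 50 bp of the summit, the 36 distinct summits had a median GC content of 29.7% (14.9 to 41.6%), and 118 failing candidates in the same windows had 44.6% (19.8 to 64.4%). The failing candidates were not reduced to 1 per matched pair. Of them 70 (59.3%) exceeded 41.6%, as did 18.4% of all distinct passing summits. That limit is the highest GC content of the 36 distinct summits, so by construction none of the 36 exceeds it. Over all 40 member summits the range was 14.9 to 59.4%. The passing median was the lower one in each of the 9 members with both kinds. It rests on 1 passing summit at Med, sax and Dad, and on 2 at dpp, Mad and brk. The gap was narrowest at Med (29.7 against 40.6%, from 1 passing and 5 failing). It was widest at sax (37.6 against 60.9%, from 1 passing and 2 failing). At shn the medians were 29.7% for 10 passing summits and 43.6% for 24 failing ones, and at sbb 28.7% for 13 and 44.6% for 35. The low GC content is not particular to these genes: over 4795 distinct passing summits on the arms the median was 32.7%, and over all failing candidates 46.5%. The 4 summits that share a pair with a stronger one had 35.6 to 59.4%.

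**Figure D5:**
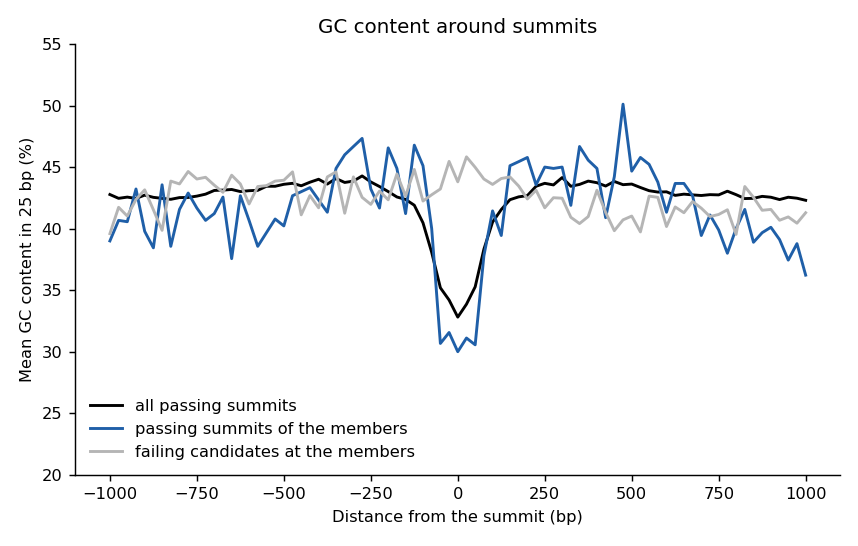
Mean GC content in bins of 25 bp (y axis, %) against distance from the summit (x axis, bp) for the 36 distinct member summits, all passing summits and the 118 failing candidates at the members. Member summits dip to 30% at the centre and return to over 40% by 100 bp to either side, and the failing candidates show no dip.

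Runs of A or T, as marked in the sequences above, follow the base composition. The longest run within 50 bp had a median of 10 bases at the 36 member summits and 7 at the failing candidates of the same genes. A run of at least 10 was present at 20 of the 36 (55.6%), at 43 of the 118 failing candidates (36.4%), and at 54.4% of all distinct passing summits. The share at the members was thus close to that of all passing summits, with no test made.

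Recognition sequences of the pathway's own transcription factors were searched within 100 bp of the 36 summits, on both strands. The Brk site, searched as GGCGCC, in the form GGCGCT, in the form GGCGTC and in the form GGCGTT, was in 3 windows, at sbb and Mad (8.33%, against 14.7% of all passing windows and 25.4% of the failing ones at the members). The Mad site (GCCGNC), which can overlap a Brk site, was in 5, at shn, sbb, Mad and sax (13.9%, against 11.8 and 30.5%). Both sites are rich in G and C. Within 100 bp the median GC content was 34.3% at the 36 summits and 44.3% at the failing candidates. Whether base composition bears on these shares was not tested. The palindromic Smad box (GTCTAGAC) was in 0, and 0.0834% of all passing windows held it. The silencer element, through which Mad, Med and Shn repress brk, and the related activating element were in 0 as well, against 0.0209 and 0.146% of all passing windows. Within 200 bp the silencer element was in 1 member window (2.78%, against 0.167% of all passing windows). That match lay 177 bp from the weaker brk summit, just outside its peak interval, and overlapped a Mad site. A window without a match says only that these letters are not in it.

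Sequences of general chromatin factors were searched in the same way. The BEAF-32 box (CGATA) was in 8 member windows (22.2%, against 27.8% of all passing windows and 22% of the failing ones at the members). Among them was the sbb promoter, where it was centred 1 bp from the summit. The GAGA element (GAGAG) was in 4, at shn and at the weak Mad summit (11.1%, against 21.9 and 22.9%). The Zelda site (CAGGTA) was in 3, at shn and dpp (8.33%, against 4 and 4.24%). The DNA replication-related element (TATCGATA), which contains the BEAF-32 box, and the CTCF core were in 0 member windows, against 3.48 and 2.27% of all passing windows. The strong Mad summit, the Med summit and both brk summits held none of the 10 motifs within 100 bp; within 200 bp the weaker brk summit had the silencer element and Mad sites given above.

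Of 44 other genes of Dpp and related TGF-beta signalling, listed by role, 28 (63.6%) had a passing summit in reach, against 49.4% of all protein-coding genes, and 15 had one in their span, against 12.4% of all. The windows of the 44 genes ranged from 10.5 to 103 kb, and the shares were not matched for length. Of the 299 genes with a window at least as long as that of tkv, 70.6% had a summit in reach. These shares carry no test, and the counts by role rest on few genes. Among 6 ligand genes it was gbb alone, with a signal of 2025, at a summit 76 bp from the start site of asRNA:CR45928. Both receptor genes had one, wit with 643 in its span and babo with 223, which was 81 bp from the start site of CG33199. Of 6 genes of signal transduction 3 had one: Snoo (322), nmo (278) and Smox (240). Of 11 genes of extracellular modulators 8 had one, the strongest being magu (598), cv (548), sog (376) and dlp (329).

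The cofactor genes gro (790), nej (413) and CtBP (217) all had a passing summit in reach. Among 16 target genes it was 11, but only 2 of the 16 had a passing summit in their span. The others were reached through their flanks alone, where a summit near neighbouring target genes counted for each. The strongest were at bam (685), 5 bp from the start site of RpS27; at Ance (680), 78 bp from that of Smg5; at tup (442), 117 bp from that of CG10602; and at ush (337), in its span. The first 3 were thus nearer to another gene. With 12 passing summits, all in its span, ush was the one gene of the 44 with 10 or more. The gene sog, which encodes an inhibitor of Dpp, came next with 7.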

How the data were processed

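Whole-embryo ChIP-seq of CG10366-eGFP was taken from the deposited peak lists on dm6. Names of the aligner and the peak caller were not given in the sources used here. Per the file descriptions, the authors deposited ranked and thresholded IDR lists for each library, and a series-wide and a conservative pair of lists from both libraries. The deposited lists give a signal for each peak, the caller's own value, with no unit stated. The deposited score is the scaled IDR. The deposited ranked lists also give the −log10 of the global IDR; every thresholded peak had 2 or more, and between 86 and 180 ranked peaks per list that reached 2 were not in the thresholded list and were counted as neither passing nor failing. The ranked lists further hold the positions of the matched pair of peaks (other columns), a role that was inferred from their values. In the conservative list 33121 of 57633 first positions were peaks of replicate 1, and 32433 of 50102 second positions were peaks of replicate 2. The positions in the series-wide list were not checked in this way.

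Summits were assigned to genes of Ensembl release 115 with Python 3.11.15, numpy 2.4.6 and pandas 2.3.3. A promoter summit lay within 500 bp of a start site. A series-wide summit counted as passing in another list where the peaks overlapped by at least 1 bp. Where peaks of a list overlapped the same summit more than once, the strongest was used. GC content and motifs were read on the RefSeq copy of dm6, and motif shares were taken over 1 summit per matched pair. The assignment was tested on simulated data.

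The members, the list of other pathway genes and the motifs were chosen with earlier results of these data known. The named genes were the 10 members, up to 4 other pathway genes per role by highest signal, the genes whose start site was nearest to a member summit, and the 3 genes most like shn and sbb. The genes with 10 or more summits that are named beside shn and sbb, CG14505, CG14502 and CG1677 where they overlap or adjoin a summit, and ush and sog by their counts, were chosen after their values were seen. No test was made. Alternatives were the other lists, an IDR of 0.001, overlap of the peak interval, other flanks and other windows. Counting 1 summit per matched pair and runs of A or T were added after seeing the data.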

Additional observations from a re-analysis of the deposited data

How the results depend on the processing

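The number of members with a passing summit ranged from 8 to 10 when either replicate was left out. Leaving out a replicate gave 24 to 39 passing summits at the members in place of 40, with 24 without replicate 1, and 10 to 15 at sbb in place of 16. An IDR of 0.001 or less gave 26 and 10. The median signal, 132, was 83.7 to 109 in the lists of single replicates, whose signals are on their own scale, 178 in the conservative list and with 1 summit per matched pair, and 255 at an IDR of 0.001. Summits within 500 bp of a start site of the member numbered 1, and 2 in the conservative list or by overlap of the interval, 1 to 2 with a replicate left out, and 6 within 1000 bp. Other pathway genes with a summit fell from 28 to 15 with a flank of 0 kb. At tkv 0 summits were left without replicate 1, 4 without replicate 2 and 1 at an IDR of 0.001. The median GC content over all 40 summits was 30.7%, and 34.3% within 100 bp. Windows holding a motif, summed over the 10 motifs, numbered 23 within 100 bp, 6 within 50 bp and 54 within 200 bp, and the larger window holds more sequence by construction. At brk a flank of 10 kb gave 8 summits in place of 2. The cause of the other changes was not tested. No paired analysis was possible because the study has 1 group and no comparison of samples. Depth is unknown, so weak summits in replicate 2 cannot be set against it.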

Other observations

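Some member summits passed in lists other than the series-wide one. At tkv the conservative list added summits of 74.7, located 2 bp from the start site of CR14033, and of 72.1. At sbb it added a summit of 68.8 and its paired neighbour of 4.56. At shn replicate 1 alone added a summit of 55.6, whose series-wide candidate had 69 and a −log10 IDR of 1.19. The shn summit of 144 in the conservative list had 85.9 in replicate 1, where a neighbour of 9.47 shared its matched pair. Among all series-wide passing peaks, 322 had a signal below 38.4, the median of the failing candidates, and 319 of them shared a matched pair with another passing peak.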
